A study of Homo sapiens with 12 samples.

Results

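NRF2, the transcription factor encoded by NFE2L2, and 9 of the genes it is known to drive were followed through HK-2 cells exposed to CsA for 48 h or 12 h. The set consists of NFE2L2, NQO1, HMOX1, TXNRD1, SRXN1, OSGIN1, FTH1, FTL, AKR1B10 and AKR1C1, taken as a list of names. That list was chosen with earlier results of these data known. Each gene is represented by 1 probe set, a group of short array probes that together read 1 transcript, namely the one with the highest mean over all arrays. Of the 10 listed genes, 9 had a probe set that names that gene alone, out of 19775 gene symbols on the array. FTH1, the ferritin heavy chain, is not named by any probe set in the annotation used here and has no value. A gene was tested where its probe set was above 4 on the log2 scale on all 3 arrays of at least 1 group, which left 10508 genes, among them 8 of the 10. AKR1B10 did not pass, so every count below is over 8 genes.

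HK-2 is an immortalised line from the human kidney proximal tubule, and RNA was read on 12 Affymetrix arrays in 4 groups of 3 biological replicates. CsA and its control were read after 48 h, and CsA and its control after 12 h. CsA is taken to be cyclosporine A, a calcineurin inhibitor given against transplant rejection that can harm the kidney. Control cells received the vehicle for the same time. The dose and the vehicle are not named in the labels. All 4 groups were grown in the same medium, which contained transferrin, an iron carrier, and selenite, a source of the selenium that thioredoxin reductase needs, together with insulin, EGF and hydrocortisone. The study compared gene expression after different nephrotoxic compounds, and CsA with its control is the comparison described here.

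In unstressed cells the adaptor KEAP1, with CUL3 and RBX1, marks NRF2 protein for destruction. Oxidants and electrophiles modify cysteines of KEAP1, NRF2 protein then accumulates, pairs with a small MAF protein and binds antioxidant response elements in its target genes, while the repressor BACH1 holds some of the same elements closed, that of HMOX1 above all. Because much of this control acts on the protein, the NFE2L2 transcript is not a measure of NRF2 activity. In proximal tubule cells the pathway is known for protection against oxidant and toxic injury.

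The core of an antioxidant response element can be written TGACNNNGC, where N is any base. In the RefSeq promoters (GRCh38.p14, 250 bases before to 50 bases after the start of each gene), 7 of the 10 genes had an entry, and the core, searched on both strands, was found in 1 of them, TXNRD1. It was found in 3702 of all 27305 promoters, or 13.6%, and in 1366 of the 8696 promoters of tested genes, or 15.7%. Of 23 promoters of other genes known as NRF2 targets, 8 held it, or 34.8%. The stretch of the TXNRD1 promoter is shown because it holds both matches of the set. It lies at chr12:104215650-104215779 on the plus strand, the strand of the gene, and ends at the first base of TXNRD1. Capitals mark the core on the gene strand, at bases -99 to -91 relative to the start, and its reverse complement at bases -8 to 1.
TXNRD1: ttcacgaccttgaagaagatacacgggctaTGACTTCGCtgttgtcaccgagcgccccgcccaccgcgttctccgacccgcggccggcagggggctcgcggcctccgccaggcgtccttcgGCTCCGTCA
A longer form of the core, TGACNNNGCA, was in 0 of the 7 promoters, in 3.26% of all promoters and in 4 of the 23 other targets, namely CBR1, CYP4F11, GCLM and GPX2. These windows are short, and the matches are runs of letters only. HMOX1, FTH1 and AKR1B10 had no entry.

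The arrays had medians between 2.85 and 2.95 on the log2 scale. Replicates lay closer to each other at 12 h, where the lowest correlation within either group was 0.997, than at 48 h, where it was 0.982 in CsA 48 h and 0.991 in control 48 h. Within a group, a tested gene had a median standard deviation of 0.28 for CsA 48 h, 0.21 for control 48 h and 0.12 for each of the 12 h groups. Replicate 3 of CsA 48 h stood apart from the other two arrays of its group, and the 48 h differences of the tested members and of the other genes named below are therefore also given without it. The epithelial markers KRT8, KRT18, KRT19, EPCAM and CDH1 were all above 4 on every array, at 5.71 to 13.3. All 8 measured markers of differentiated proximal tubule (LRP2, CUBN, SLC34A1, SLC5A2, SLC22A6, GGT1, ANPEP and AQP1) stayed below 4 on every array, and so did the 3 leukocyte markers PTPRC, CD14 and CD3E. Of markers of podocytes, distal nephron, endothelium and fibroblasts, AQP2, PECAM1 and COL1A1 passed the filter and the others did not, and none was called under CsA. The fibroblast marker COL1A1 was at 7.20 to 7.94, within the range of the epithelial markers. AQP2 reached at most 4.57 and PECAM1 at most 5.08, and the fibroblast and pericyte markers PDGFRB and COL3A1 stayed below 4 on every array. The cells thus expressed all 5 epithelial markers, with COL1A1 as well, and the defining proximal tubule transcripts were not above the filter.

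CsA left no member of the set past the test at either time, and no other gene either in the fit without the pairs. In limma, a linear model across all genes with moderated errors and Benjamini-Hochberg adjustment at a threshold of 0.05, 0 of 8 members were called at 48 h and 0 of 8 at 12 h, against 0% of all tested genes at each time. At an unadjusted p under the threshold there were 265 genes at 48 h and 138 at 12 h. Each is a smaller share of the 10508 tested genes than the 0.05 that evenly spread p-values would give. Without replicate 3 of CsA 48 h the 48 h count was again 0, with 416 genes at an unadjusted p under the threshold. Same-numbered CsA and control arrays deviated together within each time, so the differences are also given by numbered pair. A CsA difference with a single array left out keeps the same-numbered array of the other group and so breaks a pair. Such a value can move or change sign although the remaining pairs do not. With the pairs in the model the calls were again 0% of genes at 48 h, with 1297 genes at an unadjusted p under the threshold, and 0.0285% at 12 h, which is 3 genes and none of the set. The labels say that replicates are biological without saying what separates them, so p-values measure the spread between these arrays.

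**Figure D1:**
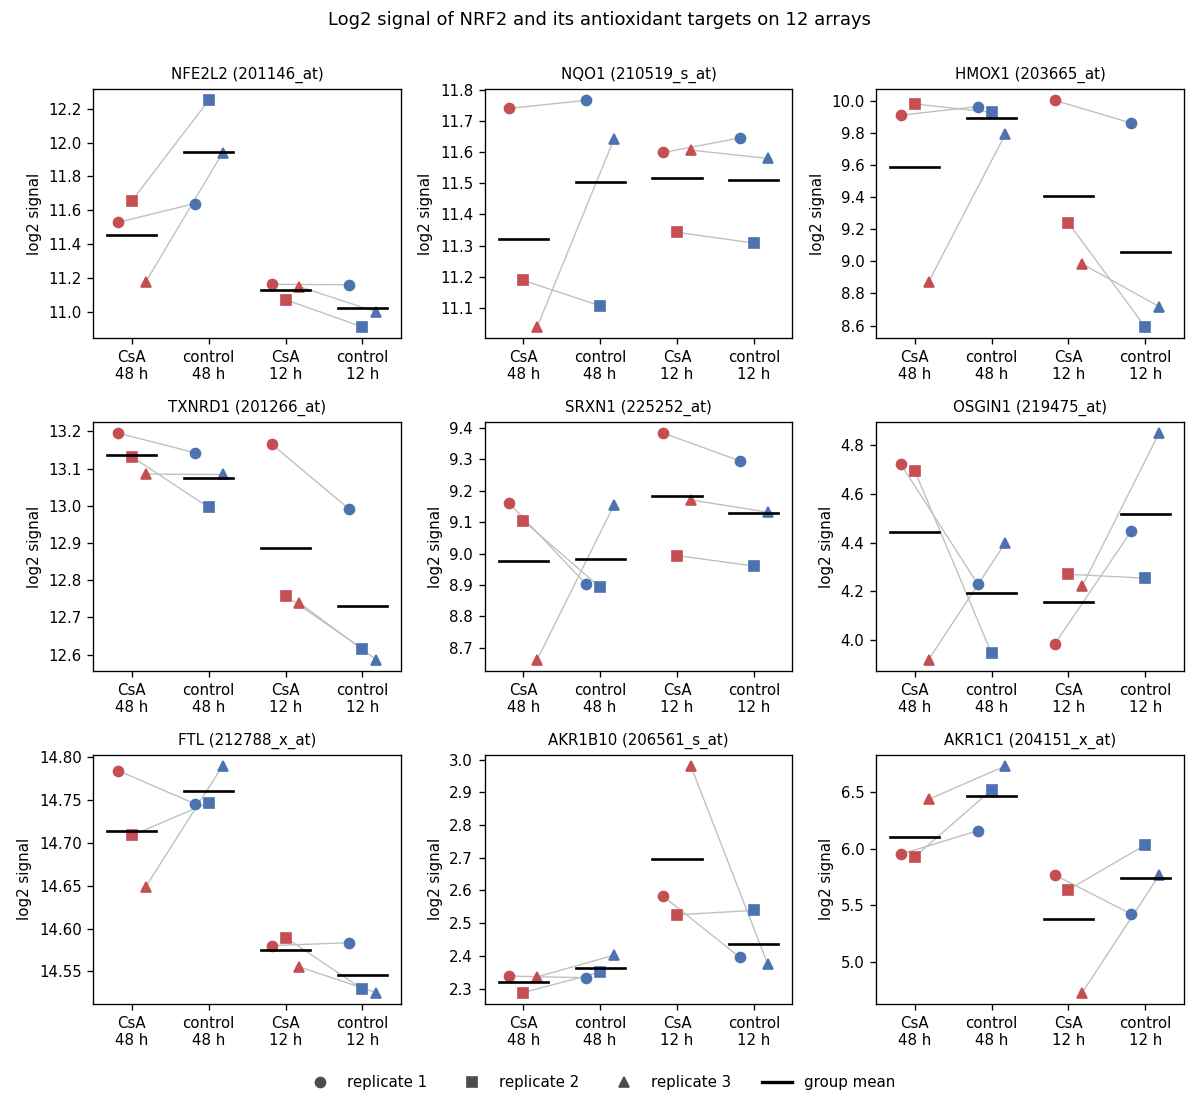
Log2 signal of the 9 measured genes on each of the 12 arrays, 1 panel per gene, with groups on the horizontal axis and the log2 signal on the vertical axis, which has its own range in each panel. Red points are CsA arrays and blue points control arrays, the shape gives the replicate number, grey lines join CsA and control of the same number and black bars are group means. NFE2L2 and FTL sit lower in the 12 h groups, with all 3 CsA 48 h and all 3 control 48 h arrays above every 12 h array for each gene, and the triangle of CsA 48 h is the lowest point of its group for NFE2L2, NQO1, HMOX1, TXNRD1, SRXN1, OSGIN1 and FTL.

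NFE2L2 itself was lower in all 3 CsA arrays than in their paired controls at 48 h and at or slightly above them at 12 h, without passing the test at either time. Its log2 signal was 11.53, 11.66 and 11.18 in CsA 48 h, against 11.64, 12.25 and 11.94 in control 48 h. At 12 h it was 11.17, 11.07 and 11.15 under CsA, against 11.16, 10.91 and 11.00 in control. The 12 h groups were tight and overlapped, and at 48 h the highest CsA array, replicate 2, lay just above the lowest control array, replicate 1. Within pairs the 48 h differences were -0.11, -0.59 and -0.76, which average -0.49 (SE 0.166, 95% interval -0.86 to -0.12, limma adjusted p = 0.999, and 0.355 with the pairs in the model). The 12 h pairs gave 0.0035, 0.16 and 0.15, with a mean of 0.10 and a 95% interval of -0.26 to 0.47. The CsA difference was thus 0.59 lower at 48 h than at 12 h on the log2 scale (-0.59, SE 0.235, 95% interval -1.11 to -0.07), and this contrast did not pass either, with a limma adjusted p of 1.00, or 0.536 with the pairs, and was -0.45 without replicate 3 of CsA 48 h. Across tested genes, 277 of 10508, or 2.64%, lay above 0 in every 12 h pair and below 0 in every 48 h pair, and NFE2L2 was 1 of them. Without replicate 3 of CsA 48 h the 48 h difference was -0.35. In RNA from a whole culture, fewer cells that express a gene and less of its RNA per cell cannot be told apart.

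A second probe set that names NFE2L2 read a lower signal than the one used above and gave the same direction at 48 h but not at 12 h. It was at 6.80, 6.94 and 6.91 in CsA 48 h, against 7.18, 7.37 and 7.79 in control 48 h, so the groups did not overlap and the pair differences were -0.38, -0.42 and -0.88. At 12 h its pair differences were -0.12, 0.02 and -0.11. The remaining one was not above 4 on any array.

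For the flavoprotein and thiol enzymes NQO1, TXNRD1 and SRXN1, CsA and control arrays overlapped at both times. NQO1, which reduces quinones by a 2-electron route, had a log2 signal of 11.74, 11.19 and 11.04 in CsA 48 h, against 11.77, 11.11 and 11.64 in control 48 h. The 12 h values were 11.60, 11.34 and 11.61 under CsA, against 11.64, 11.31 and 11.58 in control. Each CsA array at 12 h thus stood within 0.05 of its own control, and replicate 2 was the low array of both groups. The 48 h pair differences were -0.03, 0.08 and -0.60, with a mean of -0.18 (95% interval -0.66 to 0.29), and the 12 h mean was 0.0048 (95% interval -0.47 to 0.48). Both other NQO1 probe sets showed the same single departure at 48 h, with -0.09, -0.06 and -0.61 in the brighter and -0.08, -0.07 and -0.65 in the dimmer of them. Leaving out replicate 3 of CsA 48 h brought the NQO1 difference to -0.04.

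TXNRD1, the cytosolic thioredoxin reductase and a selenoprotein, was the one member that lay above its control in all 6 pairs. Its log2 signal was 13.20, 13.13 and 13.09 in CsA 48 h, against 13.14, 13.00 and 13.08 in control 48 h. At 12 h it was 13.17, 12.76 and 12.74 under CsA, against 12.99, 12.62 and 12.59 in control. Replicate 1 was high in both 12 h groups, so the groups overlapped although the pair differences of 0.17, 0.14 and 0.15 were alike. Their mean was 0.16 (SE 0.143, 95% interval -0.16 to 0.47, limma adjusted p = 1.00, and 0.70 with the pairs in the model), or 0.02 without replicate 1 of CsA 12 h. That last value keeps the high replicate 1 of control 12 h, while the other pairs gave 0.14 and 0.15. At 48 h the pairs gave 0.05, 0.14 and 0.0010, with a mean of 0.06 and a 95% interval of -0.25 to 0.38, or 0.09 without replicate 3 of CsA 48 h.

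SRXN1, sulfiredoxin, which restores overoxidised peroxiredoxins, had a log2 signal of 9.16, 9.10 and 8.66 in CsA 48 h, against 8.90, 8.89 and 9.15 in control 48 h. Its 12 h values were 9.38, 8.99 and 9.17 under CsA, against 9.29, 8.96 and 9.13 in control. Pairs 1 and 2 at 48 h were above 0, at 0.26 and 0.21, and pair 3 was below it, at -0.49, so the mean was -0.0073 (95% interval -0.37 to 0.35). At 12 h all pairs were above 0, at 0.09, 0.03 and 0.04, with a mean of 0.05 and a 95% interval of -0.31 to 0.41. The 48 h mean was 0.15 without replicate 3 of CsA 48 h.

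Among the heme and iron genes, HMOX1 varied more between replicates than FTL, and neither was called under CsA. HMOX1 encodes heme oxygenase 1, the inducible enzyme that opens heme to biliverdin, iron and carbon monoxide. Its log2 signal was 9.91, 9.98 and 8.87 in CsA 48 h, against 9.96, 9.93 and 9.79 in control 48 h. At 12 h it was 10.00, 9.24 and 8.98 under CsA, against 9.86, 8.59 and 8.72 in control. Replicate 1 was high in both 12 h groups and replicate 3 of CsA 48 h was low, so the groups overlapped at each time. The 12 h pairs were all above 0, at 0.14, 0.65 and 0.27, with a mean of 0.35 (SE 0.393, 95% interval -0.52 to 1.22, limma adjusted p = 1.00). That mean was 0.05 without replicate 1 of CsA 12 h and 0.75 without replicate 1 of control 12 h. Each of these values breaks pair 1, whose arrays were both high, while the other pairs gave 0.65 and 0.27. The 48 h pairs gave -0.05, 0.05 and -0.92, and their mean of -0.31 (95% interval -1.18 to 0.56) became 0.05 without replicate 3 of CsA 48 h.

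FTL, the ferritin light chain that stores iron together with FTH1, was near the top of the scale on all arrays. It had a log2 signal of 14.78, 14.71 and 14.65 in CsA 48 h, against 14.75, 14.75 and 14.79 in control 48 h. Its 12 h values were 14.58, 14.59 and 14.56 under CsA, against 14.58, 14.53 and 14.53 in control. The CsA and control ranges overlapped at each time, and the mean differences were -0.05 at 48 h (95% interval -0.22 to 0.13) and 0.03 at 12 h (95% interval -0.15 to 0.20). Without replicate 3 of CsA 48 h the 48 h difference of FTL was -0.01. A further FTL probe set differed by 0.0040 at 48 h and 0.05 at 12 h.

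Of the aldo-keto reductases, which reduce reactive carbonyls, AKR1C1 was at a low level and AKR1B10 did not reach the filter. AKR1C1 had a log2 signal of 5.95, 5.93 and 6.43 in CsA 48 h, against 6.16, 6.52 and 6.73 in control 48 h. At 12 h it was 5.77, 5.64 and 4.73 under CsA, against 5.42, 6.03 and 5.76 in control. All 3 pairs were below 0 at 48 h, at -0.21, -0.59 and -0.30, whereas the 12 h pairs gave 0.35, -0.40 and -1.03. Both means were -0.36 (SE 0.282, 95% interval -0.99 to 0.26 in each case, limma adjusted p = 0.999 at 48 h and 1.00 at 12 h), and the 48 h mean was -0.53 without replicate 3 of CsA 48 h. Without replicate 3 of CsA 12 h the 12 h mean was -0.04. Another AKR1C1 probe set gave 0.0064, -0.13 and -0.35 at 48 h and 0.46, 0.68 and -1.43 at 12 h, so the low array, replicate 3 of CsA 12 h, was low in both. Probe sets of this kind can also bind near-identical AKR1C genes, and the AKR1C1 values are uncertain in that respect. The remaining 3 AKR1C1 probe sets were not above 4 on any array. AKR1B10 lay at 2.34, 2.29 and 2.34 in CsA 48 h, against 2.33, 2.35 and 2.40 in control 48 h, and at 2.58, 2.53 and 2.98 in CsA 12 h, against 2.40, 2.54 and 2.38 in control 12 h. None of these AKR1B10 values reached the filter, and no difference was tested.

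OSGIN1, an oxidative stress-induced growth inhibitor, was near the filter, and its pairs had both signs at each time. Its log2 signal was 4.72, 4.70 and 3.92 in CsA 48 h, against 4.23, 3.94 and 4.40 in control 48 h. At 12 h it was 3.98, 4.27 and 4.22 under CsA, against 4.45, 4.25 and 4.85 in control, and 9 of 12 arrays were above 4. The 48 h pairs gave 0.49, 0.75 and -0.48, with a mean of 0.25 (95% interval -0.26 to 0.77), which was 0.52 without replicate 3 of CsA 48 h. The 12 h pairs gave -0.47, 0.02 and -0.63, with a mean of -0.36 (95% interval -0.88 to 0.15). OSGIN1 passed the filter only through control 12 h, the group where it was highest.

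**Figure D2:**
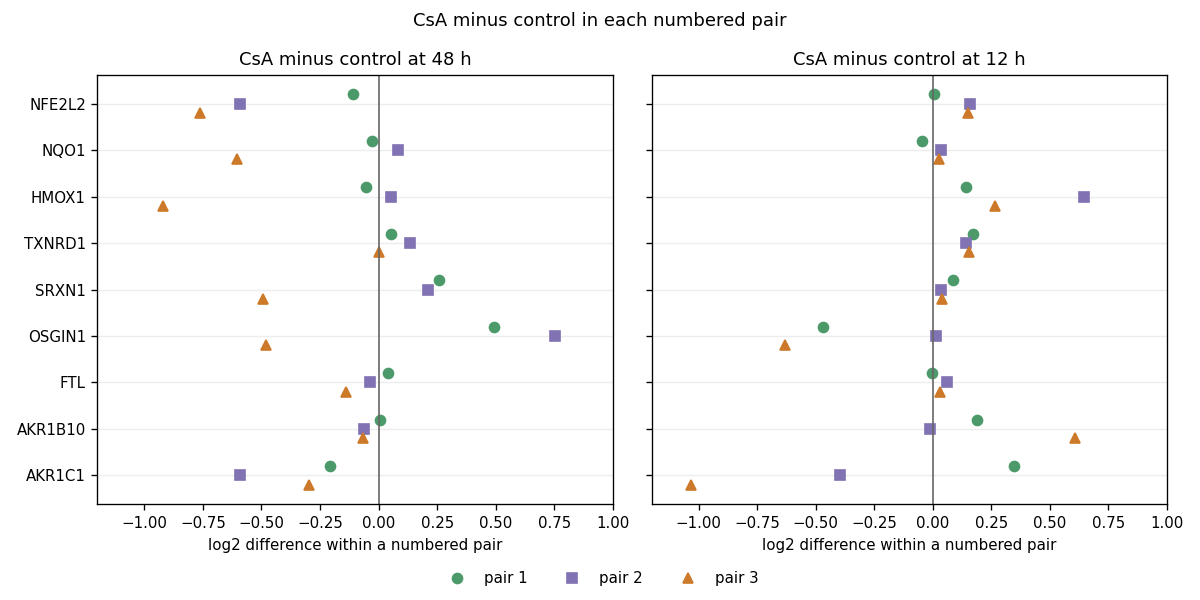
Log2 difference of CsA minus control within each numbered pair of arrays, for the 9 measured genes, at 48 h on the left and at 12 h on the right. The point shape gives the pair, and the vertical line marks 0. At 48 h the triangles of pair 3 stand left of 0 for every gene but TXNRD1, which is at 0.0010, while at 12 h most points lie within 0.2 of 0 and those of OSGIN1, AKR1C1, HMOX1 and AKR1B10 spread further.

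Taken by pair, the 8 tested members had a median difference near 0 in every pair but pair 3 at 48 h. At 48 h the median difference was 0.0065 in pair 1, 0.07 in pair 2 and -0.49 in pair 3, where only TXNRD1 was above 0. At 12 h the medians were 0.05, 0.05 and 0.03, with 5, 7 and 6 of the 8 above 0. Pair 3 at 48 h was also the pair in which all tested genes spread most, with a standard deviation of differences of 0.470, against 0.248 in pair 1 and 0.234 in pair 2. Over the 3 pairs the members' median change was -0.11 at 48 h (2 above 0 and 6 below), against -0.02 over all tested genes, or 0.02 without replicate 3 of CsA 48 h (4 above 0 and 4 below), against 0.01. It was 0.04 at 12 h (6 above 0 and 2 below), against -0.01.

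At 48 h 1 member, TXNRD1, was above 0 in every pair, against 13.4% of tested genes, and 2 members, NFE2L2 and AKR1C1, were below 0 in every pair, against 16.2%. At 12 h 4 members, NFE2L2, HMOX1, TXNRD1 and SRXN1, were above 0 in every pair, against 18.9% of tested genes, and 0 were below 0 in every pair, against 22.5%. Groups that did not overlap were rarer: 0 members were higher and 0 lower in CsA 48 h than in control 48 h on all arrays, against 2% and 2.49% of tested genes. The same counts at 12 h were 0 and 0, against 5.37% and 6.57%. In the test of the difference between the CsA changes at 48 h and 12 h, 0 of 8 members were called, against 0% of genes in limma without the pairs and 0% with them (162 and 961 genes at an unadjusted p under the threshold).

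**Figure D3:**
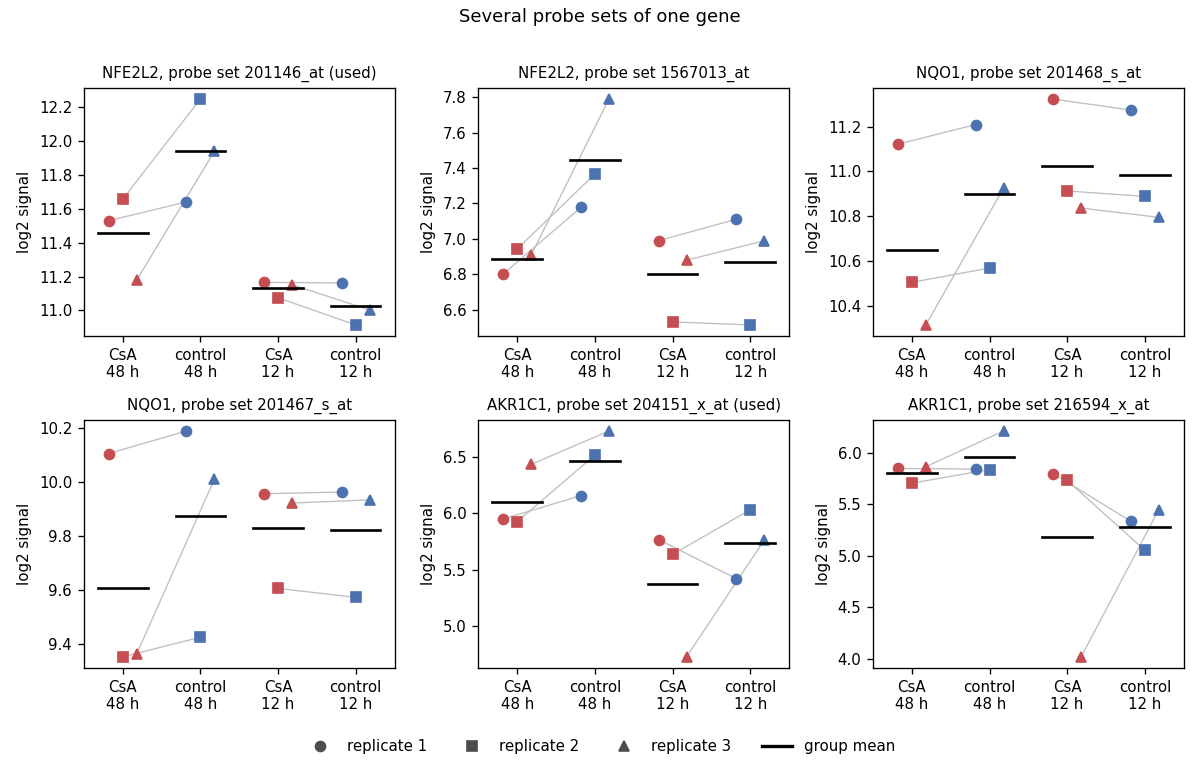
Log2 signal of 6 probe sets that name NFE2L2, NQO1 or AKR1C1, on each array, with groups on the horizontal axis and the log2 signal on the vertical axis. Shapes, colours, grey lines and black bars are as in the plot of the 9 genes, and "used" marks the probe set with the highest mean of its gene. Both NFE2L2 probe sets are highest in control 48 h, both further NQO1 probe sets are low in replicate 3 of CsA 48 h relative to its control, and both AKR1C1 probe sets are lowest in replicate 3 of CsA 12 h.

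Between 48 h and 12 h, NFE2L2 in control cells was the one call among the members. Under CsA it averaged 11.46 ± 0.25 at 48 h and 11.13 ± 0.05 at 12 h (log2, SD, n = 3 each), a difference of 0.32 (SE 0.166, 95% interval -0.04 to 0.69, limma adjusted p = 0.198). In control cells it averaged 11.94 ± 0.30 at 48 h and 11.03 ± 0.13 at 12 h, a rise of 0.92 (SE 0.166, 95% interval 0.55 to 1.29, limma adjusted p = 0.0050) or 1.89-fold. That rise passed the threshold in all 16 settings in which it was tested, with changes of 0.52 to 1.07 and adjusted p of 0.0041 to 0.0386, and the second NFE2L2 probe set gave 0.57. NFE2L2 passing in control and not under CsA does not show that the changes differ, and the test of that difference is the one given above. Under CsA 0 of 8 members were called, against 14.4% of tested genes. In control 1 of 8 was called, against 26.2% of tested genes, 12.5% higher and 13.7% lower at 48 h. Without replicate 3 of CsA 48 h, NFE2L2 rose by 0.46 under CsA (adjusted p = 0.0468) and OSGIN1 by 0.55 (adjusted p = 0.0434). Far more genes were called in that setting than with all arrays, as the last section gives. The 14.4% is therefore not its share, and these calls are not read as a result about the members.

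The other members did not pass at this setting, under CsA or in control. AKR1C1 under CsA averaged 6.10 ± 0.29 at 48 h and 5.38 ± 0.57 at 12 h, a difference of 0.73 (SE 0.282, adjusted p = 0.104). In control AKR1C1 averaged 6.47 ± 0.29 at 48 h and 5.74 ± 0.31 at 12 h, also a difference of 0.73 (SE 0.282, adjusted p = 0.0787). HMOX1 was 0.18 higher at 48 h under CsA and 0.84 higher in control (SE 0.393, adjusted p = 0.133 in control). TXNRD1 was 0.25 higher under CsA and 0.34 higher in control (SE 0.143, adjusted p = 0.0983 in control). FTL was 0.14 higher under CsA and 0.22 higher in control (SE 0.079, adjusted p = 0.0678 in control). NQO1, SRXN1 and OSGIN1 had differences of -0.19, -0.21 and 0.29 under CsA and -0.0061, -0.15 and -0.33 in control. Every 48 h array was above every 12 h array for 3 members under CsA (NFE2L2, FTL and AKR1C1), against 16% of tested genes, and for 4 in control (NFE2L2, TXNRD1, FTL and AKR1C1), against 24.9%. For 0 members was every 48 h array lower, against 18.9% of genes under CsA and 25.2% in control. The CsA comparisons share their control arrays with the comparison of times in control.

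**Figure D4:**
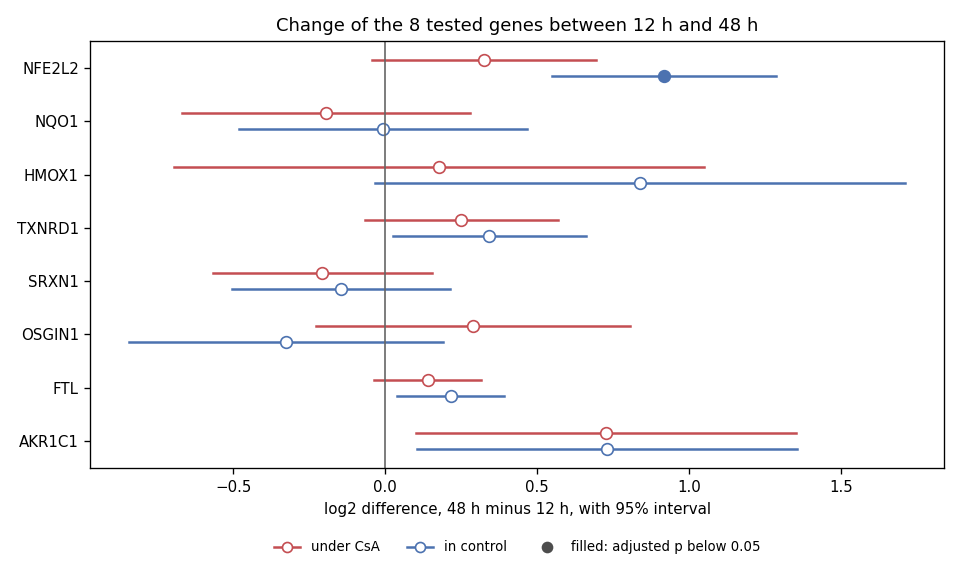
Log2 difference of 48 h minus 12 h for the 8 tested genes, with the 95% interval from limma, under CsA in red and in control in blue. Filled points have an adjusted p under the threshold. NFE2L2 in control, at 0.92, is the one filled point, and the intervals under CsA and in control overlap for every gene.

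The genes that control NRF2 gave no call for CsA against control. Of 13 listed, 11 were tested, 5 of them above 0 and 6 below at 48 h (median -0.0092), and 5 above and 6 below at 12 h (median -0.05). KEAP1 had the largest moderated statistic at 12 h, with a log2 signal of 9.27, 9.23 and 9.38 under CsA, against 9.59, 9.36 and 9.61 in control. Each CsA array was below its own control, the difference was -0.23 (SE 0.140), and the adjusted p was 1.00 in limma, or 0.569 with the pairs. At 48 h KEAP1 was at 8.61, 9.01 and 8.98 under CsA, against 8.70, 9.03 and 9.01 in control, a difference of -0.05, or -0.11 without replicate 3 of CsA 48 h. MAFF, a small MAF partner of NRF2, had the largest at 48 h, at 10.59, 11.12 and 10.96 under CsA, against 10.75, 11.41 and 11.30 in control, a difference of -0.26 (SE 0.212, adjusted p = 0.999), or -0.30 without replicate 3 of CsA 48 h. BACH1 differed by -0.18 at 48 h (-0.16 without that array) and 0.19 at 12 h.

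With time in control cells 7 of these 11 genes passed, 4 higher and 3 lower at 48 h, against 26.2% of all tested genes, 12.5% higher and 13.7% lower. BACH1 rose by 1.40 (adjusted p = 0.0012) and MAFF by 1.17 (adjusted p = 0.0050), and CUL3 changed by -0.80 (adjusted p = 0.0113). These 3 passed with each array left out in turn. KEAP1 (-0.60), RBX1 (-1.08), NFE2L1 (0.85), a relative of NFE2L2, and SQSTM1 (0.89), which binds KEAP1, passed with all arrays, and each lost the call when some single arrays were left out, with the highest adjusted p between 0.0523 for KEAP1, without replicate 3 of control 12 h, and 0.158 for NFE2L1, without replicate 1 of control 48 h. Under CsA 3 of 11 passed, against 14.4% of all tested genes, BACH1 at 1.04, MAFF at 0.76 and CUL3 at -0.62. BACH1 did so with each array left out, while the highest adjusted p was 0.129 for MAFF, without replicate 2 of CsA 12 h, and 0.131 for CUL3, without replicate 3 of CsA 12 h.

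Other genes known as NRF2 targets were likewise not called for CsA against control in the fits over all 12 arrays, with or without the pairs. Of 33 listed, 26 were tested, 13 above 0 and 13 below at 48 h (median 0.0047), and 17 above and 9 below at 12 h (median 0.05). By size of difference SLC7A11, which imports cystine for glutathione synthesis, came first at 12 h, with a log2 signal of 9.82, 8.41 and 9.84 under CsA, against 7.96, 6.55 and 7.98 in control. The groups did not overlap and the pairs differed by 1.86, 1.85 and 1.86, with a mean of 1.86 (SE 0.886, limma adjusted p = 1.00, and 0.596 with the pairs). Both fits estimate the spread of a gene over all groups, so this SE and these p-values include the 48 h arrays. Whether SLC7A11 was called in fits of the 12 h groups alone is not given here. The SD of SLC7A11 was 2.17 in CsA 48 h, 0.16 in control 48 h and 0.82 in each 12 h group. At 48 h SLC7A11 was at 11.49, 11.41 and 7.70 under CsA, against 11.32, 11.56 and 11.27 in control, so replicate 3 of CsA 48 h alone was low, and the 48 h difference of -1.18 became 0.07 without it. By moderated statistic TRIM16L came first at 12 h, at 4.13, 4.63 and 3.97 under CsA, against 3.50, 3.49 and 3.47 in control, a difference of 0.76 (SE 0.261, adjusted p = 1.00). TRIM16L passed the filter only through the 48 h groups, where it was highest. By the same statistic SLC48A1, a heme transporter, came first at 48 h, with 7.71, 8.01 and 8.17 under CsA, against 7.71, 7.32 and 7.27 in control, a difference of 0.53 (SE 0.162, adjusted p = 0.999), or 0.43 without replicate 3 of CsA 48 h. PIR came next, with a 48 h difference of -0.39 (SE 0.175, limma adjusted p = 0.999), or -0.37 without replicate 3 of CsA 48 h. GCLM, the modifier subunit of the enzyme that starts glutathione synthesis, was at 10.25, 10.05 and 9.51 in CsA 48 h, against 10.26, 10.20 and 10.69 in control 48 h, a difference of -0.44, or -0.23 without replicate 3 of CsA 48 h, the lowest array. With time in control 10 of the 26 passed, 7 higher and 3 lower, against 26.2% of all tested genes, 12.5% higher and 13.7% lower. SLC7A11 (3.89), CBR1 (-0.81) and TXN (-0.50), which encodes thioredoxin, the substrate of TXNRD1, passed with each array left out. TRIM16L (1.79) did too, but it had entered the test through its high 48 h values, so its call had to favour 48 h. Under CsA 5 passed, 3 higher and 2 lower, against 14.4% of all tested genes, and each lost the call without some single array. TRIM16L is among the higher calls under CsA (1.265) as well as in control, and the filter fixed its direction in both.

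The heme and iron genes around HMOX1 and ferritin showed 0 calls for CsA against control among 13 tested, with 5 above 0 and 8 below at each time. The smallest p with the pairs at 48 h was that of SLC40A1, ferroportin, which exports iron from cells. Its log2 signal was 6.34, 5.48 and 7.26 in CsA 48 h, against 5.61, 4.91 and 6.18 in control 48 h, and 5.62, 6.13 and 5.98 in CsA 12 h, against 6.01, 6.63 and 6.24 in control 12 h. Every CsA array was above its own control at 48 h and below it at 12 h, while the groups overlapped at both times. The differences were 0.80 at 48 h (SE 0.426, adjusted p = 0.999, and 0.251 with the pairs), or 0.34 without replicate 3 of CsA 48 h, and -0.39 at 12 h (adjusted p = 1.00, and 0.538 with the pairs). By pair, the 48 h differences of SLC40A1 were 0.73, 0.57 and 1.08. SLC11A2, an iron importer, was at 7.96, 7.85 and 7.83 in CsA 48 h, against 8.15, 8.29 and 8.45 in control 48 h, with no overlap and a difference of -0.42 (SE 0.168, adjusted p = 0.999, and 0.348 with the pairs), or -0.40 without replicate 3 of CsA 48 h. With time in control 4 of the 13 passed, against 26.2% of all tested genes. SLC11A2 (1.03), HMOX2 (-0.92), the constitutive heme oxygenase, and FLVCR1 (-1.05), a heme exporter, passed with each array left out, and TFRC (-0.65), the transferrin receptor, passed with all arrays and lost the call without some single arrays (highest adjusted p = 0.0963). Under CsA 3 of 13 passed, against 14.4%. SLC11A2 (0.66), HMOX2 (-0.76) and FLVCR1 (-1.18) passed with all arrays, and FLVCR1 also with each array left out.

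Antioxidant enzymes that are not classed here as NRF2 targets gave 0 calls for CsA against control among 18 tested, with 9 above 0 and 9 below at 48 h and 7 above and 11 below at 12 h. By moderated statistic CAT, catalase, came first at 48 h, at 10.16, 9.58 and 9.27 under CsA, against 10.26, 9.92 and 10.24 in control, a difference of -0.48 (SE 0.220, adjusted p = 0.999), or -0.28 without replicate 3 of CsA 48 h, the lowest array. TXN2, the mitochondrial thioredoxin, came first at 12 h with a difference of -0.26 (SE 0.119, adjusted p = 1.00). With time in control 5 of the 18 passed, against 26.2% of all tested genes, among them GPX3 (0.92), SOD1 (-0.52) and GLRX5 (-0.64), each with every array left out in turn. With time under CsA 3 of the 18 passed, against 14.4%. The close relatives of the members, 8 of 11 tested, also had 0 calls for CsA against control. With time 4 of these 8 were called in control, against 26.2% of all tested genes, and 2 under CsA, against 14.4%. AKR1C3, the relative of AKR1C1 with the higher signal, was at 9.57, 8.67 and 9.54 in CsA 48 h, against 9.34, 8.64 and 9.48 in control 48 h (a difference of 0.11, or -0.03 without replicate 3 of CsA 48 h), and at 8.78, 9.07 and 8.29 in CsA 12 h, against 9.06, 9.10 and 8.60 in control 12 h. Its 48 h pair differences were 0.23, 0.03 and 0.06, all above 0, and the -0.03 keeps the control of pair 3 without its CsA array. TXNRD2, the mitochondrial reductase, differed by 0.11 at 48 h (-0.09 without replicate 3 of CsA 48 h) and -0.31 at 12 h. The 48 h pair differences of TXNRD2 were 0.10, 0.25 and -0.02.

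The genes most like each member over the 12 arrays are given as a description, since the arrays share groups and times. NFE2L2 was closest to FAM221A, BCAR3 and SLC35F6, each with a Pearson r of 0.971. FTL was closest to TRAPPC8 (r = 0.979), TXNRD1 to BLOC1S2 (0.932), HMOX1 to SLC35A5 (0.918), AKR1C1 to WDR47 (0.915), NQO1 to VPS54 (0.912), SRXN1 to PSMC2 (0.886) and OSGIN1 to ZBTB14 (0.856). Between members, NFE2L2 and FTL had an r of 0.868 and HMOX1 and TXNRD1 one of 0.824, while NFE2L2 and HMOX1 reached 0.674 and NQO1 and SRXN1 0.634.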

How the data were processed

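The authors deposited log2 values of probe sets from 12 Affymetrix arrays, processed by GCRMA per the submitters' processing notes. GCRMA corrects background with a model of probe sequence, equalises the arrays' distributions and combines probes into probe sets. No GCRMA version is given in the sources used here, and no further normalization was applied. Affymetrix control probe sets (62 of 54675) were left out, 41091 carried 1 gene symbol, 1801 several and 11721 none. Symbols come from the platform annotation, 49 of these probe sets had a symbol outside the RefSeq table, and 0 were updated. No build is stated with the arrays, so coordinates are those of RefSeq promoters only. Arrays have no read depth, and their number limits the precision.

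Differences were fitted with limma 3.58.1 in R 4.3.3 on 4 group means over all 12 arrays, with eBayes moderation, two-sided tests and Benjamini-Hochberg adjustment over 10508 genes. An alternative fit had each numbered pair at a time as a block, because same-numbered CsA and control arrays deviated together, with correlations of 0.783, 0.545 and 0.740 at 48 h and 0.366, 0.531 and 0.591 at 12 h. This pairing comes from the data. The fits were also tested on simulated data. The rule for naming genes took all members, the 4 members of each further list with the largest moderated statistic in each CsA comparison, genes past the threshold, and the genes most like each member. Not all genes that this rule selects are described above. AKR1C3, which the rule also selects, and genes named for time alone were added after their values were seen. The members and lists were chosen with earlier results of these data known. The lists cover NRF2 control, other NRF2 targets, heme and iron handling, other antioxidant enzymes, close relatives of the members, and markers of proximal tubule, epithelium, podocytes, distal nephron, endothelium, leukocytes and fibroblasts. Alternatives were the block, the samples in the fit, the filter, moderation, centring, the probe set rule and leaving out single arrays.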

Additional observations from a re-analysis of the deposited data

Results flagged for a closer look

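Among the tested genes of the lists, members included, 6 had every 48 h pair on the opposite side of 0 from every 12 h pair. The tested genes were 8 members, 11 genes of NRF2 control, 26 other NRF2 targets and 13 heme and iron genes. There were also 18 other antioxidant enzymes, 8 close relatives and a few markers, with some genes on more than 1 list. For each of these 6 the difference between the CsA changes (48 h minus 12 h, log2) was tested with limma. The 6 were picked by the same pair differences that this contrast uses, so its size is no independent support. The difference was -0.59 for NFE2L2 (SE 0.235), -0.41 for MAFF, 0.31 for AKR1C3, 0.12 for TXN, 1.18 for SLC40A1 (SE 0.602) and 0.33 for TXN2. None passed the adjustment over all genes, where each had an adjusted p of 1.00, and with the replicate pairs the adjusted p lay between 0.275 for SLC40A1 and 0.719 for TXN. Among all 10508 tested genes 277, or 2.64%, lay above 0 in every 12 h pair and below in every 48 h pair, and 285, or 2.71%, the other way. The further NFE2L2 probe set was not above 0 in every 12 h pair. Replicate 3 of CsA 48 h was singled out from its values, and groups of 3 arrays were not otherwise screened for single outlying arrays.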

How the results depend on the processing

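The count of genes called for CsA at 12 h, 0 in limma without pairs, was 3 with the replicate block, 1 with only the groups compared, 5 with only those groups and the block, 1 with no filter on low values, and 183 with those groups, the block, trend and robust moderation, a setting chosen after seeing the data. No member was among the calls in any of these settings. Which other listed genes were called in them is not given here. For time in control, 2756 genes were called, and 1322 to 3189 when single arrays were left out. For time under CsA, 1508 were called, against 968 with the replicate block, 38 with only the groups compared, 0 with those groups and the block, with or without trend and robust moderation, 988 with no filter, and 432 to 3885 when single arrays were left out, the highest without replicate 3 of CsA 48 h. Between times the same number did not pair arrays, with correlations between -0.144 and 0.226. The block changed no call of a member in the CsA comparisons. In control, the time difference of AKR1C1 passed with only the groups compared (0.73, limma adjusted p = 0.0430), also with the block (0.0327) and with trend and robust moderation added (0.0406). That of FTL passed with no filter (0.22, 0.0066), with trend and robust moderation (0.0069), with the mean of probe sets (0.0252), and with only the groups compared, the block, trend and robust moderation (0.0498). That of HMOX1 passed without replicate 1 of control 12 h (1.24, 0.0478). The cause was not tested. The share of all tested genes called in each of these settings is not given here, so these calls are not read as results about the members. Of 656 repeats of member values, 10 passed the threshold where the value with all arrays did not, and 5 moved by more than the residual spread. The sign changed in 32 repeats of 11 member results, all of them short of the threshold in every setting run, among them NQO1 at 12 h, SRXN1 and HMOX1 at 48 h, and the difference between the CsA changes of AKR1C1.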
